A study of Macaca fascicularis with 16 samples.

Results

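The genes described here encode the signalling part of the T-cell receptor and the proteins that act nearest to it: the CD3 chains CD3D, CD3E and CD3G, the zeta chain CD247, the kinases LCK and ZAP70, the adaptor LAT, and the surface receptors CD5 and CD6. They were chosen by symbol, with earlier results of these data known, and are 9 of the 23602 gene symbols in the count tables. All 9 had 1 row in the count tables and passed the filter on low counts. The receptor that binds antigen has no signalling tail of its own and relies on the CD3 chains and zeta. When it is engaged, LCK phosphorylates motifs in those tails, ZAP70 docks on them and phosphorylates LAT, and LAT gathers the enzymes that release calcium and activate Ras. CD5 and CD6 are related scavenger-receptor family proteins on T cells that sit close to the receptor and tune its signal.

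The study gave NKTT320, an antibody against the T-cell receptor that iNKT (invariant natural killer T) cells carry, with its fixed alpha chain, to 4 Mauritian-origin cynomolgus macaques (LG04, LG11, LG12 and LG15) and asked how it activates iNKT cells in the animal. Blood mononuclear cells were taken from each animal before dosing and 30 minutes, 2 hours and 1 day after it, which gave 16 total RNA libraries, 4 at each time. All 4 animals received the antibody, so the antibody, the time elapsed and the repeated bleeding cannot be told apart, and the labels used here give no age or dose. The cells were unfractionated, so iNKT cells, which are a small part of blood T cells, were not measured on their own, and fewer T cells and less of an RNA per T cell cannot be told apart.

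Library totals ran from 1417467 to 8582852 counts, and the 4 shallowest libraries were those of LG12 and LG04 at 1 day, of LG12 at 30 minutes and of LG15 at 2 hours. The lowest count of any of the 9 genes in any library was 100, far above the floor of 3 counts, which stood for 0.35 to 2.12 CPM (counts scaled to library size). Globin genes took 0.025% to 48.7% of the counts, with the top value in LG04 at 2 hours. The series-wide 2 hour table holds the 1 day values of LG04 under its 2 hour heading, and the file made for the animal was used instead. The 1 day library of LG04 was closer to LG15 at 1 day (chi-square per gene 8.36) than to its own pre-treatment (67.2), 30 minute (96.3) or 2 hour (118) libraries. This measure rises with depth and includes globin counts, and the libraries differed in both, so the distances are not on one scale. Results were also computed without the 1 day library of LG04 and without its 2 hour library. Reads were counted on human gene models, so levels of different genes may carry different losses.

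Per unit of gene length, CD3D was the most abundant of the 9 genes at every time. In the authors' FPKM (reads scaled to gene length and library size) its pre-treatment level was 135, 182, 237 and 299 in LG04, LG11, LG12 and LG15, the order of animals used for every set of 4 values from here on. Its mean was 213 ± 70.6 FPKM (SD, n = 4), and its lowest value lay above the highest LCK value of 124. LCK, the kinase that starts the cascade, came next at 114 ± 11.8 FPKM, followed by CD3E at 99.3 ± 31.9, CD3G at 76.7 ± 24.6 and CD247 at 76.3 ± 17.2.

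The adaptor LAT, at 54.9 ± 6.67 FPKM (SD, n = 4), stood below CD247 in 4 of 4 animals, although the ranges over animals overlapped. CD6 had 48.4 ± 11.8, ZAP70 41.2 ± 14.6 and CD5 36.2 ± 3.88 FPKM. From LCK down to CD5, neighbouring genes overlapped in their pre-treatment ranges, so the only step in the order wider than the spread between animals was that from CD3D to LCK. CD5 had the lowest mean FPKM of the 9 before dosing, at 2 hours and at 1 day, and ZAP70 had it at 30 minutes.

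**Figure D1:**
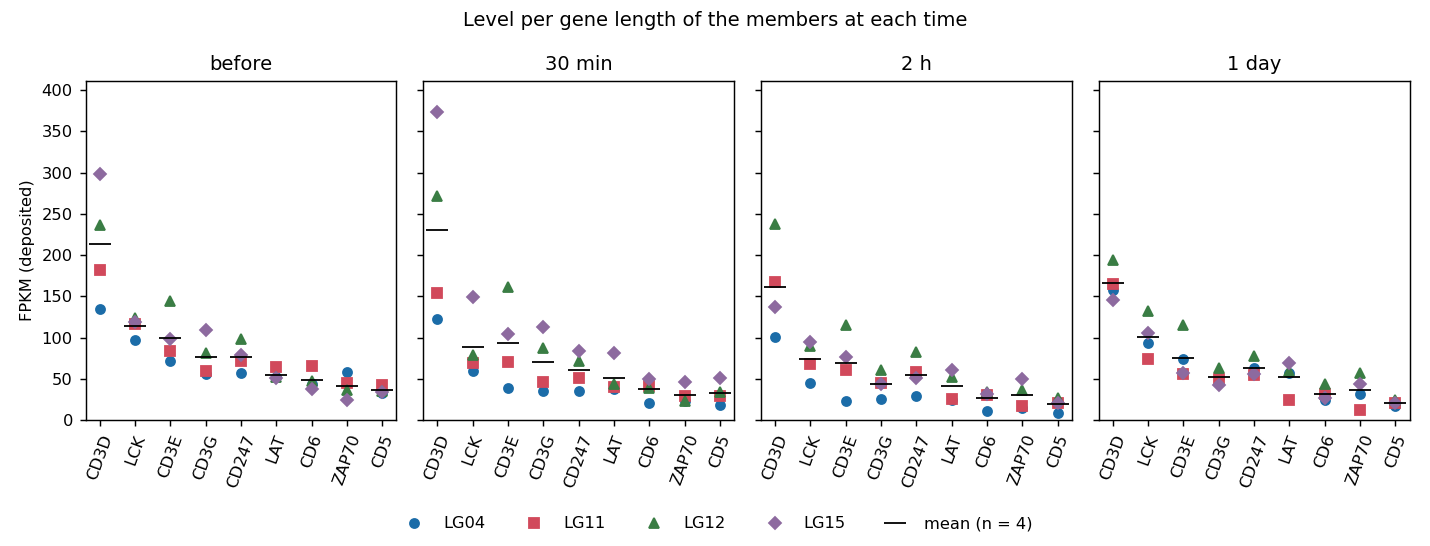
Deposited FPKM of the 9 genes (y axis) in each animal (symbols) before dosing and at 30 minutes, 2 hours and 1 day (panels), with the mean of 4 animals as a bar; genes are ordered by their pre-treatment mean. CD3D has the highest mean in every panel, and LG04 lies low for most genes at 2 hours, when globin took 48.7% of its counts.

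At 2 hours after NKTT320 all 9 genes had a fitted log2 fold change below 0 against pre-treatment, where 47.3% of all genes tested did. The lowest values were those of CD6 and CD5, followed by CD3G, ZAP70 and LCK, and the median over the 9 was -0.47, against 0.02 over all genes tested. None of the 9 passed the adjusted threshold of 0.05 in edgeR's quasi-likelihood test, which called 0% of all genes in this comparison, while 4 of 9 had an unadjusted p under 0.05 in the lower direction, as did 3.27% of all genes. DESeq2 called 2 of the 9, CD5 and CD6, against 0.574% of the genes it gave an adjusted p. In 4 of 4 animals 6 members were lower, against 6.52% of all genes, and for 4 of these every 2 hour value lay below every pre-treatment value, against 1.03% of all genes. The 9 genes share a pathway and the same libraries, so they are not independent draws to set against these shares.

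CD5, a receptor that dampens T-cell receptor signals, stood at 121, 119, 89.2 and 100.3 CPM before dosing. At 2 hours it stood at 54.2, 62.0, 70.6 and 67.0 CPM. The groups were apart: the highest 2 hour value, that of LG12, lay under the lowest pre-treatment value, which was also that of LG12. The means were 63.4 ± 7.08 and 107.5 ± 15.4 CPM (SD, n = 4), a log2 fold change of -0.76 ± 0.17 (SE), or 1.69-fold lower. It was number 29 of 11545 genes in order of p, and its adjusted p was 0.197 in edgeR, against an adjusted p of 0.00965 in DESeq2.

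CD6, which binds an adhesion molecule on antigen-presenting cells, stood at 161, 189, 127 and 109 CPM before dosing and at 64.8, 88.1, 91.8 and 101 CPM at 2 hours. LG04 and LG11, the animals with the most CD6 at the start, had the widest differences, and LG15 differed by only -0.10 on the log2 scale. The fitted log2 fold change was -0.77 ± 0.19 (SE), 1.71-fold lower, with an adjusted p of 0.26 in edgeR and an adjusted p of 0.0324 in DESeq2.

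Among the CD3 chains, CD3G stood furthest from its starting level when all libraries were included. It had 83.0, 67.8, 82.4 and 132 CPM before dosing and 63.6, 50.2, 59.3 and 56.5 CPM at 2 hours. The 2 hour values were close to one another and all below the pre-treatment values, and LG15 went from the highest of the 4 animals to the third. The means were 57.4 ± 5.62 and 91.4 ± 28.2 CPM (SD, n = 4), with a log2 fold change of -0.62 ± 0.17 (SE; adjusted p = 0.325, edgeR). The lead over CD3E depended on LG15. Without that animal CD3G was at -0.43 and CD3E at -0.50, and without the 4 shallowest libraries they were at -0.46 and -0.48. On the deposited FPKM scale CD3G overlapped between the times, which left 3 non-overlapping genes there.

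CD3E, whose product pairs with the gamma or delta chain, had 118, 109, 167 and 133 CPM before dosing and 66.3, 81.3, 138 and 122 CPM at 2 hours. It was lower in 4 of 4 animals, most of all in LG04, but the groups overlapped, and the log2 fold change was -0.40 ± 0.19 (SE; adjusted p = 0.676, edgeR). CD247, the zeta chain that carries most of the phosphorylation motifs, was likewise lower in 4 of 4 animals and overlapped, at 87.7 ± 11.8 against 107.8 ± 11.3 CPM (SD, n = 4; log2 -0.29 ± 0.15 SE).

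CD3D differed from the other chains in how the animals lined up. It had 88.3, 93.0, 109 and 153 CPM before dosing and 108, 87.1, 112 and 73.9 CPM at 2 hours, higher in LG04 and LG12 and lower in LG11 and LG15. Its log2 fold change was -0.17 ± 0.20 (SE), and 0.07 without LG15. The 2 hour library of LG15 is among the 4 shallowest, and without those libraries the value was 0.06.

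LCK varied little between animals before dosing, at 216, 201, 195 and 215 CPM, a coefficient of variation of 4.9%. At 2 hours it stood at 165, 121, 140.1 and 184 CPM. Every 2 hour value lay below every pre-treatment value, and the distance was widest in LG11. The log2 fold change was -0.47 ± 0.16 (SE), 1.39-fold lower, with an adjusted p of 0.484 in edgeR. ZAP70 and LAT, the next steps of the cascade, had log2 fold changes of -0.50 ± 0.39 and -0.34 ± 0.30 (SE), and their animals went in different directions.

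**Figure D2:**
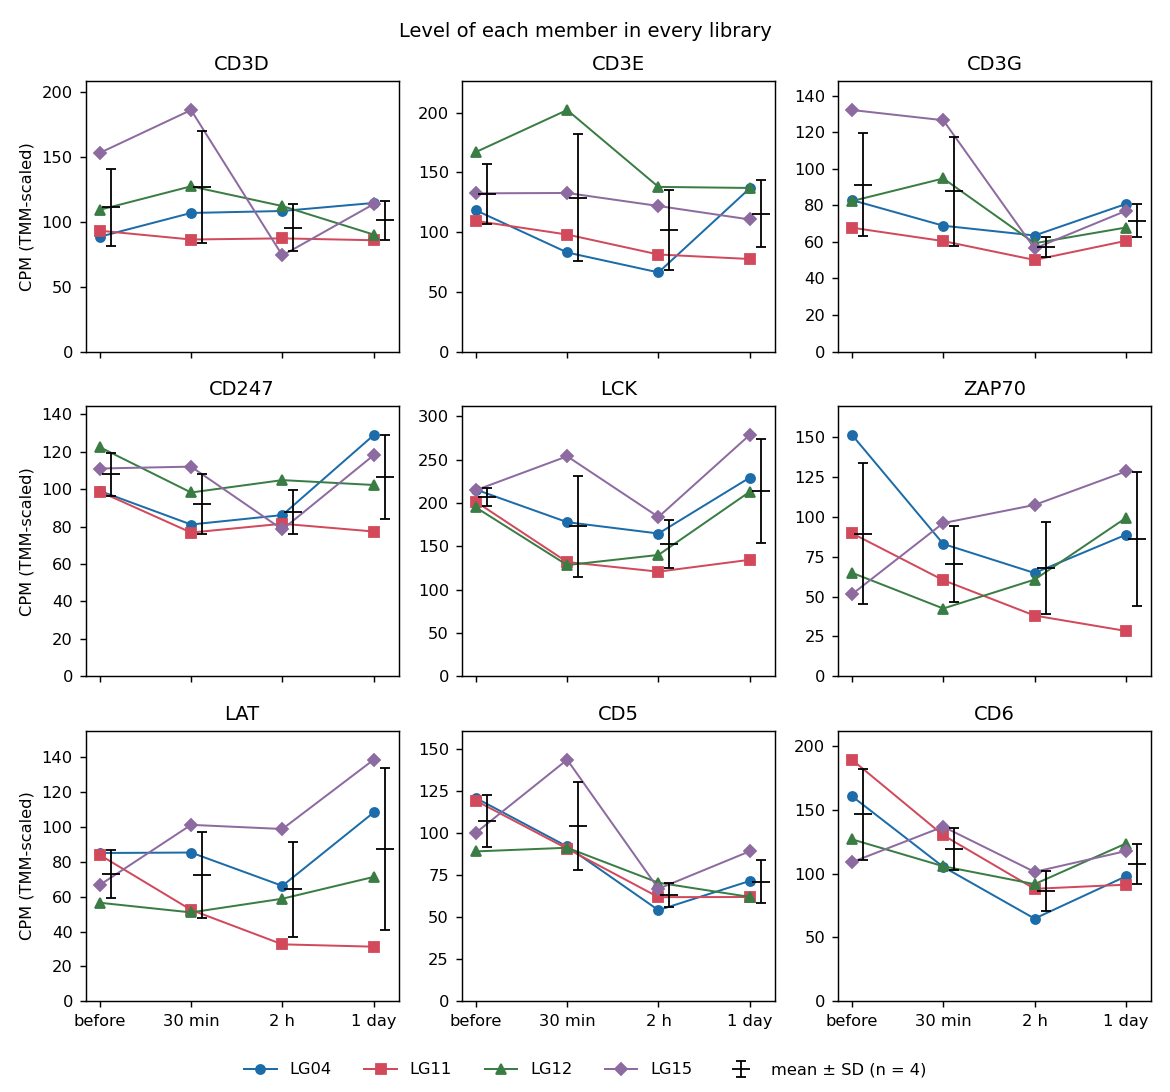
CPM on TMM-scaled library sizes (y axes, each from 0) of the 9 genes before dosing and at 30 minutes, 2 hours and 1 day in the 4 animals (coloured lines), with mean ± SD over the 4 animals in black. CD5, CD6, CD3G and LCK have all 2 hour points below all pre-treatment points, while the lines of ZAP70 and LAT cross.

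At 30 minutes the 9 genes differed less from pre-treatment. A fitted log2 fold change below 0 was found for 8 of them, against 46% of all genes, and the median was -0.13. None passed the adjusted threshold in edgeR (0% of all genes did) or in DESeq2 (0.149% of its genes), and 0 had an unadjusted p under 0.05 in either direction (1.48% of all genes in the lower one). The 4 animals were not alike: 9 of 9 genes were lower in LG11 and 7 of 9 in LG04, while 8 of 9 were higher in LG15. LCK is an example, with 178, 132, 128 and 254 CPM, lower than before in 3 animals and higher in LG15. Its log2 fold change was -0.31 ± 0.16 (SE; adjusted p = 1, edgeR). CD3D was the 1 gene above 0, at 0.17 ± 0.20 (SE).

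CD5 at 30 minutes was 92.1, 90.9, 91.4 and 144 CPM, so 3 animals stood together and LG15 far above them. Between 30 minutes and 2 hours all 9 genes had a fitted log2 fold change below 0, against 47.6% of all genes, with a median of -0.32, and 4 of them were lower in 4 of 4 animals, against 8.08% of all genes. CD5 was lower in 4 of 4 animals, over this interval, with log2 changes of -0.76, -0.55, -0.37 and -1.10, and the groups did not overlap. The fitted log2 fold change was -0.70 ± 0.17 (SE), number 13 of 11545 in order of p, with an adjusted p of 0.841 (edgeR). CD6 did not overlap between these times either (log2 -0.47 ± 0.19 SE, adjusted p = 0.999, edgeR), which made 2 of 9 members against 0.346% of all genes. CD3G was lower in 4 of 4 animals with overlap (log2 -0.56 ± 0.17 SE, adjusted p = 0.909, edgeR). An unadjusted p under 0.05 in the lower direction was found for 3 of 9 members (2.29% of all genes), and none was called by edgeR (0% of all genes) or by DESeq2 (0.0744% of its genes).

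At 1 day 8 of 9 genes had a fitted log2 fold change below 0, against 50% of all genes, with a median of -0.18, and CD5 was the member furthest from its pre-treatment level. CD5 stood at 71.6, 62.1, 62.1 and 89.3 CPM, against 121, 119, 89.2 and 100.3 CPM before dosing. It was lower in 4 of 4 animals, and the groups overlapped only through LG15, whose 89.3 CPM just exceeded the pre-treatment 89.2 CPM of LG12. The log2 fold change was -0.61 ± 0.17 (SE; adjusted p = 0.12 in edgeR, adjusted p = 0.0406 in DESeq2). CD6 had a log2 fold change of -0.45 ± 0.19 (SE; adjusted p = 0.313, edgeR) and was lower in 3 of 4 animals. edgeR called 0 of the 9 genes at 1 day, against 0.225% of all genes, and DESeq2 called 1, against 3.05% of its genes. The 2 members with an unadjusted p under 0.05 compare with 5.13% of all genes in that direction.

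LCK at 1 day stood at 229, 134, 213 and 279 CPM, above its pre-treatment level in 3 animals and below it in LG11. Its fitted log2 fold change had a 95% interval from -0.35 to 0.34. CD247 had a log2 fold change of -0.03 ± 0.15 (SE), CD3D -0.12 ± 0.20, CD3E -0.19 ± 0.19 and CD3G -0.32 ± 0.17. Without the 1 day library of LG04 the values, in the same order, were -0.17, -0.22, -0.45 and -0.40. CD3G and CD5 were the 2 members lower in 4 of 4 animals, against 9.16% of all genes. In LG11 9 of 9 genes stood below their pre-treatment levels, while in LG04 and LG15 5 of 9 stood above theirs.

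From 2 hours to 1 day all 9 fitted log2 fold changes were above 0 (48.1% of all genes), with a median of 0.31 against -0.02 over all genes. LCK was higher in 4 of 4 animals, by 0.48, 0.15, 0.60 and 0.60, with a fitted value of 0.47 ± 0.16 (SE; adjusted p = 0.287, edgeR). CD3G and CD6 were also higher in 4 of 4 animals (11.3% of all genes were), with fitted values of 0.30 ± 0.17 and 0.32 ± 0.19 (SE), and CD5 had 0.15 ± 0.17 (SE). None of the 9 was called by edgeR (0.104% of all genes) or DESeq2 (0.768% of its genes), and 1 had an unadjusted p under 0.05, higher, as did 7.12% of all genes. Without the 1 day library of LG04, 2 of the 9 values were below 0 (CD3D at -0.06 and CD3E at -0.03).

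In a test for any difference over the 4 times, which does not pick a pair, CD5 had the smallest p of the members (adjusted p = 0.114, edgeR). CD6 followed with an adjusted p of 0.235, CD3G with an adjusted p of 0.256 and LCK with an adjusted p of 0.305 (edgeR). The other 5 members had adjusted p-values from 0.681 to 0.929. edgeR called 0 members (0.104% of all genes) and DESeq2 called 1 (3.38% of its genes), and the 4 members with an unadjusted p under 0.05 compare with 12.2% of all genes.

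**Figure D3:**
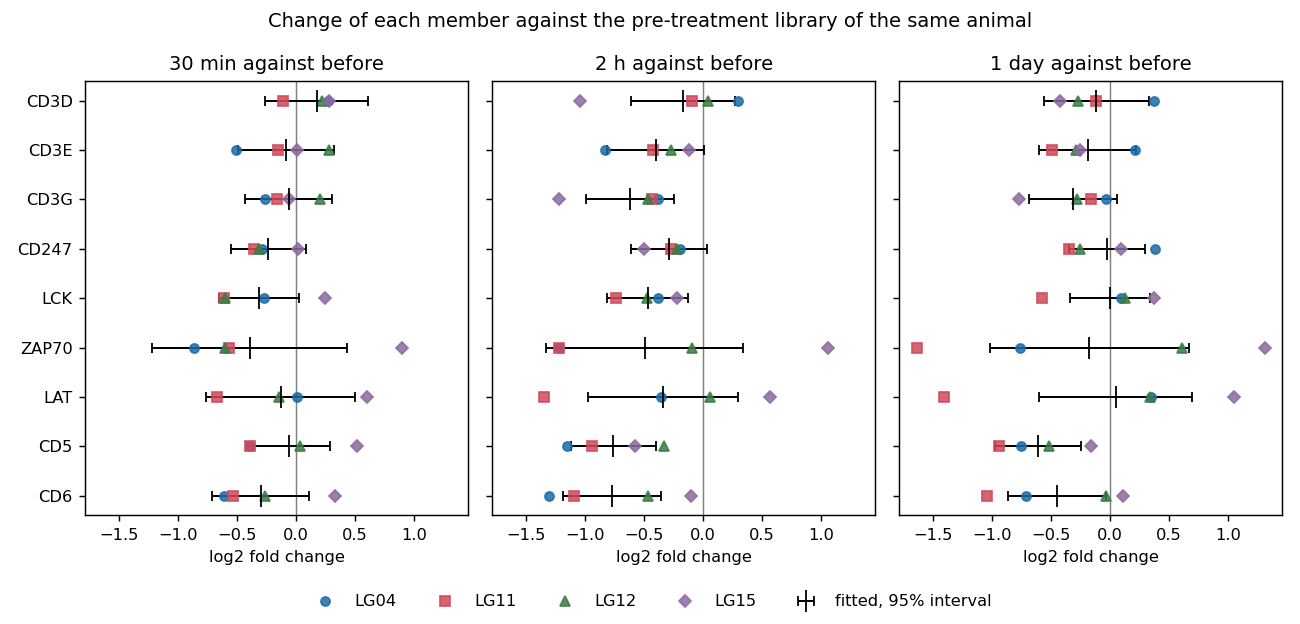
Log2 fold change (x axis) of the 9 genes against the pre-treatment library of the same animal at 30 minutes, 2 hours and 1 day (panels): coloured symbols are single animals, and black bars are the edgeR estimate with its 95% interval. At 2 hours the intervals of CD3G, LCK, CD5 and CD6 lie below 0, and at 1 day those of CD5 and CD6 do.

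ZAP70 and LAT were the members with the widest errors and with animals on both sides of 0. ZAP70, the kinase recruited to the phosphorylated zeta chain, stood at 151, 89.7, 64.9 and 51.4 CPM before dosing. At 2 hours it stood at 64.8, 38.1, 60.6 and 107.4 CPM. The log2 changes were -1.22 in LG04 and -1.23 in LG11, -0.10 in LG12 and 1.06 in LG15.

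By 1 day ZAP70 stood at 88.7, 28.5, 99.3 and 128 CPM. LG15, the lowest before dosing, was now the highest, and LG11 was the lowest. LAT, the substrate of ZAP70, had 85.1, 84.0, 56.6 and 66.8 CPM before dosing and 108, 31.3, 71.4 and 139 CPM at 1 day. LG15 had a log2 change of 1.05 and LG11 of -1.41. The 95% intervals of the fitted 1 day values were wide, from -1.02 to 0.67 for ZAP70 and from -0.60 to 0.70 for LAT. Without LG11 the 2 hour value of LAT was 0.07, and the 1 day value of ZAP70 was 0.32.

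Pairs of members differed widely in how alike they were across the libraries. With the mean of each animal subtracted, ZAP70 and LAT had a Pearson r of 0.85 over the 16 libraries (log2 CPM), CD5 and CD6 0.84, CD3D and CD3G 0.79, ZAP70 and CD6 0.75, CD247 and LCK 0.72, LCK and LAT 0.71, and LCK and CD6 0.70. The least alike were CD3D and ZAP70, at -0.39. These are descriptions over libraries that share animals, times and depth. Leaving out each animal, or the 2 hour or 1 day library of LG04, gave 0.76 to 0.94 for ZAP70 with LAT and 0.77 to 0.92 for CD5 with CD6, but 0.26 to 0.87 for CD3D with CD3G. Against the mean of the other 8 members, CD6 had the highest r at 0.88 and CD3D the lowest at 0.18.

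**Figure D4:**
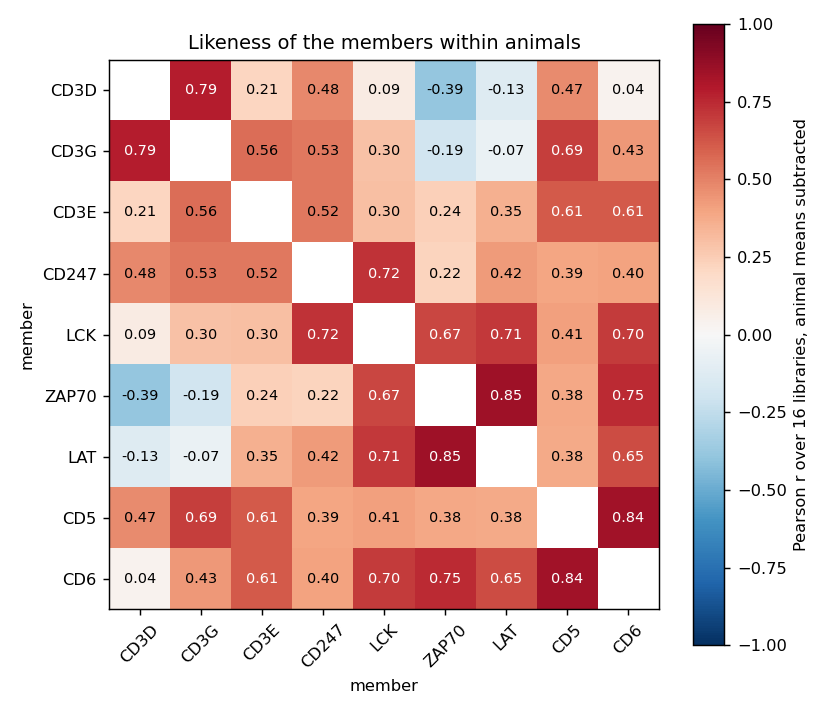
Pearson r between each pair of the 9 genes over 16 libraries, from log2 CPM with the mean of each animal subtracted (colour and number; both axes list the genes). ZAP70 with LAT, CD5 with CD6 and CD3D with CD3G are the highest, and CD3D with ZAP70 is the lowest.

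Outside the 9, the genes most like their mean over the 16 libraries were PLA2G16 (r = 0.95), IFFO2 (0.91), LRIG1 (0.91), CDC25B (0.89) and ZBTB4 (0.88). ZCCHC14 (0.87), ATP8B2 (0.87), RBM14 (0.86), MAN1C1 (0.85) and HIST2H2AC (0.84) came next. LRIG1 is a negative regulator of growth factor receptors, and CDC25B is a phosphatase that drives entry into mitosis. The genes least like the members were SDC2 (-0.89), REPS2 (-0.86), ZBTB34 (-0.86), MOSPD1 (-0.86) and ARG2 (-0.85), the last an arginase of mitochondria. SDC2 had a mean of only 4.21 CPM. All of these genes are the ends of a ranking of every tested gene outside the 9. No ranges with animals left out are given for them.

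The rest of the proximal pathway was read from a list of 47 genes by role, of which 41 were tested; the other 6, the constant regions of the antigen-binding chains such as TRAC and TRBC1, were not analysed here. At 2 hours 32 of the 41 had a log2 fold change below 0 and 9 above, with a median of -0.17. Of all genes tested 47.3% were below 0. In edgeR 0 of the 41 passed (0% of all genes), and 3 had an unadjusted p under 0.05, all lower (3.27% of all genes). NFATC3 and NFATC2, transcription factors that enter the nucleus on calcium release, stood at 258 ± 49.7 against 354 ± 42.7 CPM and at 134 ± 14.4 against 193 ± 31.5 CPM (SD, n = 4). Both were lower in 4 of 4 animals (6.52% of all genes were). Their log2 fold changes were -0.46 ± 0.15 and -0.51 ± 0.17 (SE; adjusted p = 0.447 and adjusted p = 0.463, edgeR).

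SH2D2A, an adaptor that binds LCK, followed at -0.54 ± 0.20 (SE; adjusted p = 0.576, edgeR), then THEMIS at -0.44 ± 0.21, and the LCK relative FYN at -0.34 ± 0.16. PTPN2, a phosphatase that acts on LCK, was the exception among the 6 smallest p-values, at 0.24 ± 0.12 (SE) and higher in 4 of 4 animals. Downstream effectors had 9 of 10 below 0 with a median of -0.22, phosphatases and ubiquitin ligases 6 of 8 with -0.16, kinases 5 of 6 with -0.14, adaptors 9 of 13 with -0.11, and costimulatory and adhesion receptors 3 of 4 with -0.17.

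At 30 minutes the list was split, 25 below 0 and 16 above with a median of -0.02. SH2D2A was at 15.2 ± 6.70 against 24.8 ± 11.3 CPM (SD, n = 4; log2 -0.72 ± 0.20 SE, adjusted p = 1, edgeR) and lower in 4 of 4 animals. NFATC3 (-0.32) and PTPN22 (-0.33), a phosphatase that opposes LCK, were lower in 4 of 4 animals, and CD28 (0.28), the main costimulatory receptor, was higher in 4 of 4. ICOS and MALT1 were at 0.29 and 0.22. None of the 41 passed in edgeR (0% of all genes did), and 2 had an unadjusted p under 0.05 in the lower direction (1.48% of all genes).

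Between 30 minutes and 2 hours 27 of 41 were below 0 (47.6% of all genes), led by CD28 (-0.53 ± 0.20 SE), PAG1 (-0.37), NFATC2 (-0.37), THEMIS (-0.45), SIT1 (-0.52) and RASGRP1 (-0.30). Of the 41, 3 had an unadjusted p under 0.05, all lower (2.29% of all genes), and 0 passed in edgeR (0% of all genes).

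At 1 day the list had 21 genes below 0 and 20 above, with a median of -0.01. TEC, a tyrosine kinase that platelets and myeloid cells also express, stood at 22.6 ± 7.53 against 10.3 ± 1.53 CPM (SD, n = 4) and was higher in 4 of 4 animals. Its log2 fold change of 1.09 ± 0.21 (SE) had an adjusted p of 0.063 in edgeR, just outside the threshold. GRAP2 (0.80 ± 0.37) and CD226 (1.01 ± 0.52), which platelets express too, were higher in 2 of 4 animals each. BCL10 (-0.43 ± 0.14), CD28 (-0.49 ± 0.20) and NFATC3 (-0.31 ± 0.15, SE) were lower in 4 of 4, as were 9.16% of all genes.

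None of the 41 passed in edgeR at 1 day (0.225% of all genes did), with 2 lower and 2 higher at an unadjusted p under 0.05. Over all 11545 genes tested, 592 (5.13%) were lower and 978 higher at that p. Platelet markers were higher in the same samples, 10 of 10 with a median log2 of 2.74 and a summed level of 799 to 32520 CPM against 132 to 9852 CPM before dosing, and their part in the values of TEC, GRAP2 and CD226 was not tested. From 2 hours to 1 day 30 of 41 were above 0, with TEC at 0.91, NFATC2 at 0.59, SIT1 at 0.70, UBASH3A at 0.48, CD226 at 1.16 and PTPN2 at -0.25. Of these 41, 5 had an unadjusted p under 0.05, all higher (7.12% of all genes), and 0 passed in edgeR (0.104% of all genes).

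Most other genes of T cells had fitted values below 0 at 2 hours as well. Of 12 T-cell genes outside the 9 members, such as TCF7, LEF1 and IL7R, 11 were tested, and 9 of these were below 0 with a median log2 of -0.38, against -0.47 for the members. An unadjusted p under 0.05 (edgeR), lower, was found for 4 of these 11 and for 4 of the 9 members. The summed level of the 11 T-cell genes ran from 1180 to 1861 CPM before dosing and from 916 to 1890 CPM at 2 hours, so it overlapped. That of the 9 members ran from 1014 to 1122 CPM and from 642 to 889 CPM and did not overlap. The T-cell sums lay further apart between animals before dosing, so overlap does not compare the changes within animals. Within animals the T-cell sum was lower in LG04 (1371 to 916) and LG15 (1561 to 1022). It was slightly higher in LG11 (1180 to 1248) and LG12 (1861 to 1890). A sum weighs the most abundant genes most. The median log2 change of the 11 genes was below 0 in 4 of 4 animals, at -0.587, -0.311, -0.055 and -0.605. Measured against the median change of the T-cell genes in the same animal, the median change of the members at 2 hours differed by 0.20, -0.43, -0.22 and 0.38 (log2), above them in LG04 and LG15 and below in LG11 and LG12. CD5 and CD6 were below that median in 3 of 4 animals each, by values of -0.57, -0.63, -0.28 and 0.03 for CD5 and of -0.72, -0.79, -0.41 and 0.50 for CD6. At 1 day CD5 was below it in 4 of 4, at -0.83, -0.52, -0.34 and -0.27.

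At 30 minutes the T-cell genes were mostly above 0, 8 of 11 with a median of 0.09, where the members had a median of -0.13. Against the T-cell median of the same animal the members' median was -0.13, -0.50, -0.29 and -0.06, lower in 4 of 4 animals. From 30 minutes to 2 hours 11 of 11 T-cell genes were below 0, with a median of -0.455 against -0.319 for the members. Over that interval the members' median stood above the T-cell median in 4 of 4 animals, by 0.181, 0.07, 0.014 and 0.42. Natural killer cells, which express CD247, LCK, ZAP70 and LAT but no surface T-cell receptor, had their markers below 0 at 30 minutes, 10 of 10 with a median of -0.79, and a summed level of 232 to 576 CPM against 418 to 842 CPM before dosing. The part of this in the members' values was not tested. At 2 hours the NK-cell markers were again near their starting level, 5 of 10 below 0 with a summed 420 to 787 CPM.

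Monocyte markers went the other way at 2 hours. All 12 had a log2 fold change above 0, with a median of 1.20, where 6085 of the 11545 genes tested were above 0. An unadjusted p under 0.05 (edgeR), higher, was found for 7 of them and for 481 of the 11545 genes. None of the 12 was called by edgeR (0% of all genes were). The summed monocyte level was 3654, 2635, 492 and 1829 CPM before dosing and 6030, 5840, 1177 and 7392 CPM at 2 hours, higher in 4 of 4 animals though overlapping. B-cell markers had fitted values below 0 in 10 of 10, with a median of -0.43 and summed levels of 152 to 880 CPM before and 154 to 975 CPM at 2 hours. The animals were split, with B-cell median log2 changes of -1.15, 0.12, 0.19 and -0.90. An unadjusted p under 0.05 (edgeR), lower, was found for 0 of the 10, against 3.27% of all genes. No marker in these lists was at 0 in all libraries. At 1 day LG11, in which 9 of 9 members were low, had a summed monocyte level of 8324 CPM, while the other animals had 1215 to 1503 CPM. The part of these cell types in the members' values was not tested.

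**Figure D5:**
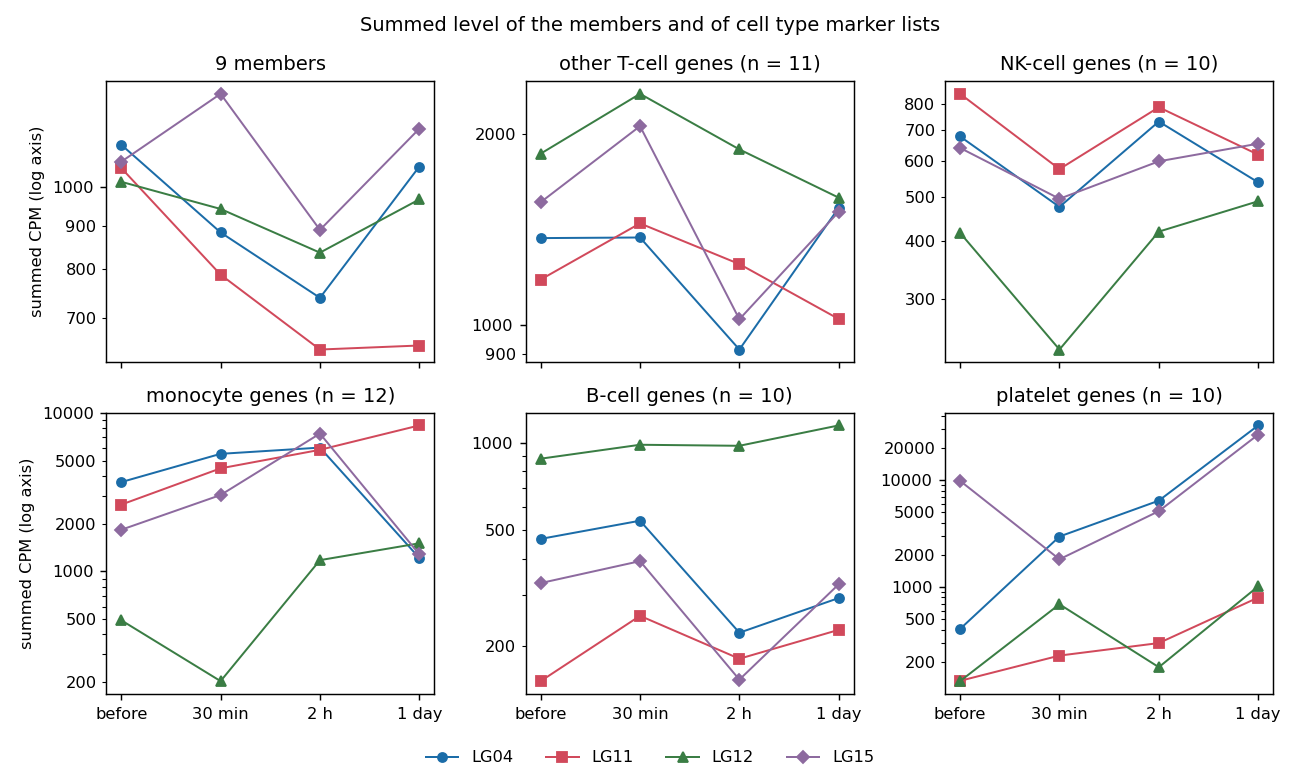
Summed CPM (log axes) of the 9 members, of 11 other T-cell genes and of NK-cell, monocyte, B-cell and platelet marker lists in each animal (coloured lines) before dosing and at 30 minutes, 2 hours and 1 day. The members lie at 642 to 889 CPM at 2 hours, below 1014 to 1122 CPM before dosing, while the monocyte sums are higher at 2 hours in 4 of 4 animals.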

How the data were processed

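Blood mononuclear cell RNA of 4 macaques was sequenced at 4 times. Values were deposited as unnormalized counts (whole numbers for each gene) and as FPKM, which the authors scaled to gene length and library size. Per the submitters' processing notes, tools included STAR, HTSeq and Trimmomatic, and builds were the human GRCh37 and hg19; for strand use and settings, nothing is given in the sources used here. Counts came from the tables made per animal; the 24369 entries were summed to 23602 symbols, of which 766 had more than 1 entry.

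The test was the quasi-likelihood F test in edgeR 4.0.16 (R 4.3.3; TMM, filterByExpr) on all 16 libraries together, with terms for time and for animal and 9 residual degrees of freedom. P-values were adjusted over 11545 genes by Benjamini-Hochberg, with a threshold of 0.05; all are two-sided. CPM is on TMM-scaled library sizes, and changes in single animals use log2 CPM with a prior count of 2. A standard error is the size of the log2 fold change divided by the square root of F. The animal term follows from the repeated sampling of each macaque; 23 of 24 same-animal pairs of libraries correlated above 0.1 in their deviations from the time means (median 0.56, lowest 0.06). The fit was also run on simulated counts with known changes at 2 hours and no differences between animals. That run does not test the animal term.

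The members and gene lists were chosen with earlier results of these data known. Named were all 9 members, the 10 genes most and 5 least like their mean, and the 6 pathway genes with the smallest p in each comparison. The comparisons share libraries, so each is given by its own values. Alternatives were DESeq2 1.42.0, RLE normalization, no filter, no animal block, other level scales, counts without globin genes and fits without single libraries or animals. The labels name no molecular identifiers, so reads may share a molecule and the floor of 3 counts covers counting error only.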

Additional observations from a re-analysis of the deposited data

Results flagged for a closer look

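CD5 at 30 minutes was 144 CPM in LG15 (143.8), while the other 3 animals stood between 90.9 and 92.1 CPM. The gap to the nearest animal was 0.976 of the whole range of the group, above Dixon's critical value at the 95% level for 4 samples. It was the 1 such value among 36 groups (9 genes at 4 times), and chance flags about 1 group in 20.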

How the results depend on the processing

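No alternative but DESeq2 called any member: DESeq2 called 2 at 2 hours, 1 at 1 day and 1 over all times. Without the replicate block (the animal term) edgeR called 0, and the median log2 fold change at 2 hours was -0.41 against -0.47. The members' median kept its direction in every comparison under every alternative run. Leaving out 1 animal gave -0.54 to -0.35 at 2 hours, -0.33 to -0.09 at 30 minutes, -0.29 to -0.05 at 1 day, and 0.24 to 0.43 from 2 hours to 1 day. From 30 minutes to 2 hours the median was -0.19 without the 2 hour library of LG04, an alternative added after seeing the data, as were the counts of members below 0 and of non-overlapping members. The latter was 3 to 5 of 9 under each setting. Leaving out 1 animal, 5 to 8 were below 0 at 1 day (5 without LG11) and 0 to 1 from 2 hours to 1 day. In that interval 2 were below 0 without the 1 day library of LG04, and 2 without the 4 shallowest libraries.

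Values of single genes turned sign, and not only small ones: LAT at 2 hours was -0.34 with all libraries. At 1 day LCK was 0.012 with DESeq2, 0.019 with RLE and 0.048 without the block. LAT at 1 day was -0.048 without the 1 day library of LG04 and -0.10 without the 4 shallowest. Without those 4, CD3D was 0.062 at 2 hours, CD247 0.066 from 30 minutes to 2 hours, and CD3D -0.30 and CD3G -0.025 from 2 hours to 1 day. Without the 1 day library of LG04, CD3D was -0.055 and CD3E -0.028 in that interval, and without the 2 hour library of LG04 ZAP70 was 0.022 from 30 minutes to 2 hours. Leaving out 1 animal at a time gave these ranges for genes that crossed 0. At 30 minutes they were CD3E -0.24 to 0.015, CD5 -0.27 to 0.019 and LAT -0.33 to 0.10. At 2 hours they were LAT -0.60 to 0.069 and CD3D -0.33 to 0.073. At 1 day they were ZAP70 -0.56 to 0.32, LAT -0.25 to 0.60, CD247 -0.18 to 0.12, LCK -0.11 to 0.23 and CD3D -0.29 to 0.004. From 30 minutes to 2 hours they were ZAP70 -0.25 to 0.13 and CD247 -0.091 to 0.10. From 2 hours to 1 day they were CD3E -0.079 to 0.36 and CD3D -0.069 to 0.22. The cause was not tested. Over all genes, DESeq2 called 13, 77 and 387 genes at 30 minutes, 2 hours and 1 day, where edgeR called 0, 0 and 26; without the filter edgeR called 0, 7 and 70. Depth limits LG12 and LG04 at 1 day most, where 3 counts stand for 2.12 and 1.63 CPM.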
